A study of Homo sapiens with 9 samples.

Results

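The genes described here are 43 components of DNA replication and S phase, chosen by name from the 60664 genes of the count table. Each of the 43 symbols matched 1 protein-coding gene, and all 43 passed the filter on low counts that left 17207 genes for testing. By role they form 11 groups, from the loading of the helicase onto origins to the assembly of nucleosomes behind the fork. Helicase loading and helicase start are kept apart in time, which prevents a second round in the same cycle. In G1, the origin recognition complex, CDC6 and CDT1 load the ring-shaped MCM2 to MCM7 helicase onto DNA, and geminin later blocks CDT1. In S phase, CDC45 and the GINS complex join the ring, polymerases copy both strands, PCNA holds them on the template, RPA covers single-stranded DNA, and FEN1 and LIG1 close the lagging strand. Many of these genes are transcribed at the G1/S border under E2F factors, whereas genes of mitosis follow later in the cycle, so that the relative levels of both sets vary with the cycle of a culture.

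The libraries came from Huh-7, an established hepatocellular carcinoma line, and measured poly(A)-selected RNA of untreated cells at 80% confluency. WT cells and cells without vtRNA1-1 (1-1 KO) were received from another laboratory, and cells without vtRNA1-2 (1-2 KO) derived from 1 cell of the WT line, edited with CRISPR/Cas9 guides on both sides of the gene. Vault RNAs are short noncoding RNAs transcribed by RNA polymerase III, and the comparison asks how the loss of either paralog changes the transcriptome. Each line has 3 libraries, extracted in triplicate. The study calls them biological replicates, and whether they came from separate cultures is not given in the sources used here, so that p-values measure the spread between these libraries. With 1 line per genotype, the genotype and the history of the line cannot be told apart.

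Total counts per library were between 32384469 and 41782387. The vault RNA genes were not measured by these mRNA libraries: VTRNA1-2 had 0 counts in all 9, and VTRNA1-1 and VTRNA1-3 had at most 2, so the targeted genes check no label here. All 10 hepatocyte markers were tested, ALB and AFP included, and their summed level was 15380 to 16320 CPM (read counts scaled to library size) in WT, 31700 to 32650 in 1-1 KO and 21810 to 23890 in 1-2 KO. ALB had means of 2532, 9427 and 4739 CPM in WT, in 1-1 KO and in 1-2 KO, and AFP had 1759, 8167 and 7419 CPM. In 1-2 KO the means of APOB, TF, FGB and TTR lay below WT, and those of APOA1, SERPINA1, HNF4A and AHSG above. In 1-1 KO only the mean of HNF4A lay below WT. Of markers of other cell types, KDR and MS4A1 had 0 counts everywhere, and most of the fibroblast and leukocyte sums in WT came from LUM at 157 CPM and LYZ at 113.5 CPM. Their summed levels were 191 to 202, 302 to 317 and 122 to 131 CPM for 7 fibroblast markers, 7.45 to 8.14, 6.52 to 7.29 and 0.855 to 1.11 CPM for 6 endothelial markers, and 133 to 135, 105 to 111 and 22.2 to 23.5 CPM for 8 leukocyte markers, in WT, in 1-1 KO and in 1-2 KO. The part of these differences in the results below was not tested. Replicate 1 of 1-2 KO stood apart from the other 2 libraries of its line, with chi-square values of 15.2 and 16.1 per degree of freedom against them and 2.67 between those 2, beside 2.06 to 10.4 in the other lines.

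Compared to WT, the replication genes were mostly upregulated in 1-1 KO cells and went both ways in 1-2 KO cells. In 1-1 KO, 28 of the 43 were upregulated and 11 downregulated at an adjusted p under 0.05, where 32.5% of all tested genes were upregulated, 30.9% were downregulated and 63.4% passed in either direction. Their median log2 fold change was 0.20, beside 0.01 over all tested genes, and it ran from -0.59 for POLE to 0.80 for TK1. In 1-2 KO, 14 were upregulated and 11 downregulated (58.1% in either direction), beside 28.2%, 26.2% and 54.4% of all tested genes in the same order. The share of the 43 genes that passed in 1-2 KO was thus near that of all tested genes. The median of the 43 was 0.0067, beside 0.02 over all tested genes, with a range from -0.50 for E2F2 to 0.49 for GINS3. Adjusted p-values are from edgeR's quasi-likelihood test, corrected over all 17207 genes.

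Both comparisons use the same 3 WT libraries, so they are not independent of each other, and the knockouts were also compared directly. In 1-2 KO against 1-1 KO, 9 of the 43 genes were higher and 25 lower, beside 33.1% and 32.2% of all tested genes (65.3% in either direction), and the median log2 difference was -0.18 beside 0.01. E2F2 was the only one with a difference above 1 on the log2 scale. The 3 libraries of a line did not overlap with those of the other line for 40 of the 43 genes between 1-1 KO and WT (68.9% of all tested genes), for 23 between 1-2 KO and WT (58.4%) and for 37 between the knockouts (69.8%). In bulk RNA, a smaller share of cells in S phase and less of a transcript per cell cannot be told apart.

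**Figure D1:**
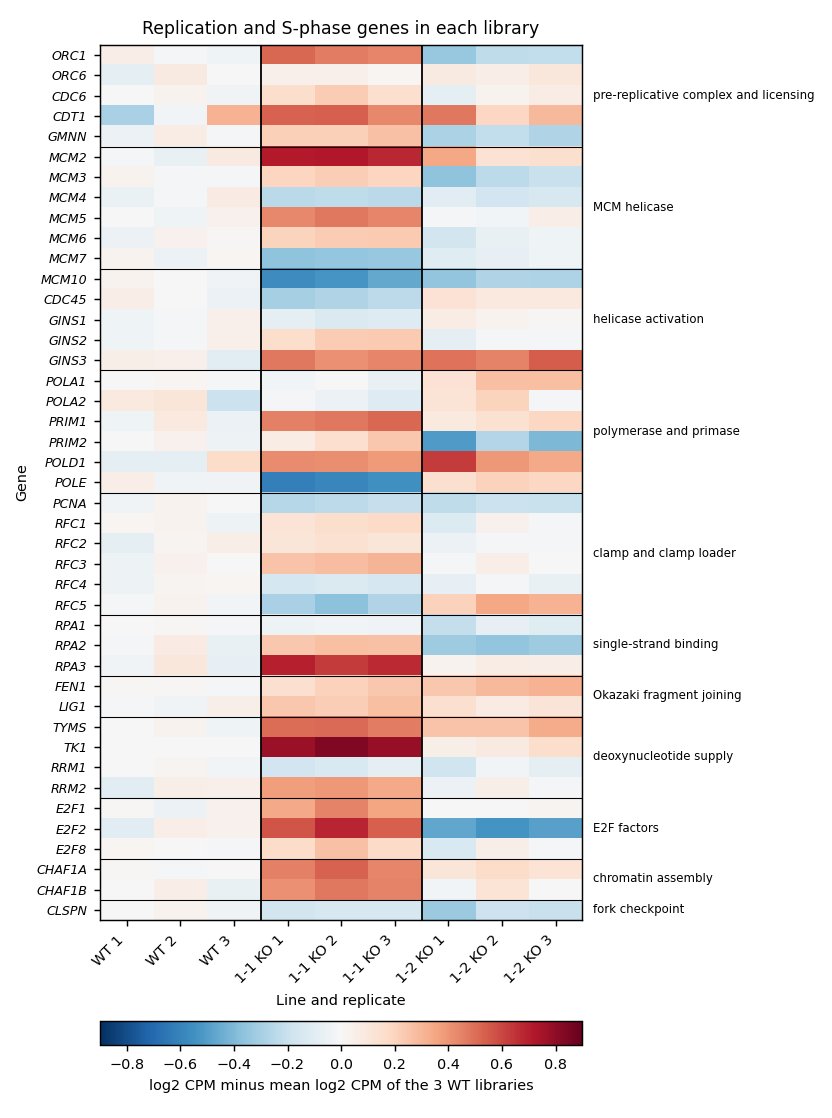
Each row is a gene, ordered by role, each column a library, and the colour gives log2 CPM minus the mean log2 CPM of the 3 WT libraries. The 1-1 KO columns are mostly red, with POLE and MCM10 the bluest rows, whereas the 1-2 KO columns hold both colours, with E2F2 and PRIM2 the bluest.

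The spread within a line was small. The coefficient of variation of the 43 CPM levels had a median of 3.09% in WT, 2.12% in 1-1 KO and 3.34% in 1-2 KO, beside 6.60%, 4.75% and 6.34% over all tested genes. The largest values were 21.2% for CDT1 in WT, 6.03% for PRIM2 in 1-1 KO and 11.0% for POLD1 in 1-2 KO.

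Levels between genes were compared per length, as TPM, the counts divided by the merged exon length of each gene and scaled to the same total in every library. In WT the highest was PCNA, the sliding clamp, at 884 ± 25.3 TPM (SD, n = 3), followed by MCM7 at 683 ± 18.1, FEN1 at 558 ± 5.54 and MCM3 at 517 ± 6.39 TPM. The lowest were POLA2, a subunit of polymerase alpha, at 2.04 ± 0.227 TPM, GINS3 at 11.7 ± 0.616 and E2F2 at 13.5 ± 0.849 TPM. POLA2 rests on 178 to 297 counts per library, and another annotated gene on the same strand covers 2012 of its exonic bases. With the length of 1 reference transcript per gene (MANE Select), MCM7 was first at 807 TPM and PCNA second at 571. The lowest were then POLA2 at 4.07, E2F2 at 8.33 and CHAF1B at 15.3 TPM, with GINS3 next at 15.9 TPM. The order at both ends thus depends on the length used. Shares and ratios per length below use the merged exon lengths, and their values depend on this choice too.

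The promoters of these genes were read from RefSeq (GRCh38.p14), as the 250 bases before and 50 after the start, and 38 of the 43 genes had one. MCM4, MCM5, RPA2, RPA3 and E2F8 are named only. An E2F word, TTTCCCGC or TTTGGCGC on either strand, was present in 17 of the 38 (44.7%), in 8 of 69 promoters of other replication genes and in 2.31% of all 27305 promoters of this length. A CCAAT box on either strand was present in 22 of the 38 (57.9%), in 32 of 69 promoters of other replication genes (46.4%), in 23 of 30 promoters of mitotic genes (76.7%) and in 35.7% of all promoters. The letters TTTGAA, the CHR element of late cell cycle genes, were present in 1 of the 38 (RRM1), in 22 of 30 promoters of mitotic genes (73.3%) and in 15.4% of all promoters. The E2F words contain neither CCAAT nor TTTGAA. The genes with an E2F word had a median log2 fold change of 0.21 in 1-1 KO and 0.0067 in 1-2 KO, and the 21 without one had 0.15 and 0.03. A word in this window is a match of letters, not a measured binding site. Only these E2F words were searched, so a promoter without one may hold another form of the site.

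The promoters below belong to genes at the ends of the range in 1 or both knockouts, and capitals mark the E2F word, on either strand. E2F2 (chr1:23531184-23531483, minus strand) carried TTTGGCGC at position -42 from the start, POLE (chr12:132687293-132687592, minus strand) the reverse complement GCGCCAAA at -18, MCM7 (chr7:100101348-100101647, minus strand) GCGGGAAA at -187, and GINS3 (chr16:58392221-58392520, plus strand) GCGGGAAA at -5. TK1 (chr17:78187155-78187454, minus strand) had the largest rise in 1-1 KO and held neither word.
E2F2: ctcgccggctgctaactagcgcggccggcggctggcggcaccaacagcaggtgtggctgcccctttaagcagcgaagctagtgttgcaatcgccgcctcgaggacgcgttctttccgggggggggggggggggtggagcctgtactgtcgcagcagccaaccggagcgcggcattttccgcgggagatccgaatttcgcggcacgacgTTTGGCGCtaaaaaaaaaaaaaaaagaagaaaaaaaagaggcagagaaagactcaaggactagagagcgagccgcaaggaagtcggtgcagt
POLE: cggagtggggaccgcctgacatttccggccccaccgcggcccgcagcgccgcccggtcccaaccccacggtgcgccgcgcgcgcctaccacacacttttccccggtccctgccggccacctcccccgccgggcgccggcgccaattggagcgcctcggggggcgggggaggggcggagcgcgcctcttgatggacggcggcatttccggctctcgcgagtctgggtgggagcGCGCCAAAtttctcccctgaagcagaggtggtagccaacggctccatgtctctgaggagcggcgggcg
MCM7: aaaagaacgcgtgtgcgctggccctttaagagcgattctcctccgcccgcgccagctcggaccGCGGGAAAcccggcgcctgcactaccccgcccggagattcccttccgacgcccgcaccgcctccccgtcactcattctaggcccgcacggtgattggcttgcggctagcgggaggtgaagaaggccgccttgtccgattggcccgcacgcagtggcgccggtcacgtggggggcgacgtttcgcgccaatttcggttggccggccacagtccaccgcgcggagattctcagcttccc
GINS3: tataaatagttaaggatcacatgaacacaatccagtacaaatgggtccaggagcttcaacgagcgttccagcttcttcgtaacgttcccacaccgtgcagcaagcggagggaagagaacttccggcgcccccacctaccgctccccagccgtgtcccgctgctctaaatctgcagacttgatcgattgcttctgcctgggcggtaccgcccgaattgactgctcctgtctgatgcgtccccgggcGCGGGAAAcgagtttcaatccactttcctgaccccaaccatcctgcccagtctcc
TK1: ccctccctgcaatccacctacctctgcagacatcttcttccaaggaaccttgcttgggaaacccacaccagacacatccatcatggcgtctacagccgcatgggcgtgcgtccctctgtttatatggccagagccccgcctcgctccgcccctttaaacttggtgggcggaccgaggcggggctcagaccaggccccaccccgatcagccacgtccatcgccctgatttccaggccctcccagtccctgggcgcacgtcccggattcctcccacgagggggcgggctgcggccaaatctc

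Among the 5 licensing genes, 4 were upregulated in 1-1 KO and none downregulated, whereas 1 was upregulated and 2 downregulated in 1-2 KO. Counts by role, here and below, rest on few genes. They stand beside the 63.4% of all tested genes that passed in 1-1 KO and 54.4% in 1-2 KO. ORC1, the largest subunit of the origin recognition complex, stood at 47.1, 44.6 and 44.2 CPM in WT, 64.8, 62.2 and 61.4 CPM in 1-1 KO, and 35.7, 38.6 and 38.8 CPM in 1-2 KO. The 3 lines did not overlap, with 1-1 KO on top and 1-2 KO at the bottom. The log2 fold change of ORC1 was 0.47 ± 0.05 (SE; adjusted p = 5.65e-07) in 1-1 KO and -0.27 ± 0.05 (adjusted p = 0.000223) in 1-2 KO, and the knockouts differed by -0.74 ± 0.05 (adjusted p = 4.35e-09). ORC6, another subunit of the complex, passed in neither knockout, with 0.03 ± 0.04 and 0.08 ± 0.04 on the log2 scale. The ratio of ORC1 to ORC6 per length was 0.975 ± 0.0864 in WT, 1.32 ± 0.0307 in 1-1 KO and 0.766 ± 0.0369 in 1-2 KO (SD, n = 3), without overlap between the lines.

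CDT1, which brings the MCM ring to the origin, had the widest spread of all 43 genes. Its levels were 29.5, 35.5 and 44.9 CPM in WT, 52.1, 52.5 and 48.6 CPM in 1-1 KO, and 50.1, 41.1 and 44.1 CPM in 1-2 KO. All 1-1 KO libraries lay above WT, and those of 1-2 KO overlapped with WT. CDT1 was upregulated in both, by 0.49 ± 0.11 (adjusted p = 0.00166) in 1-1 KO and 0.31 ± 0.11 (adjusted p = 0.0329) on the log2 scale in 1-2 KO. The call in 1-2 KO was lost without WT replicate 1, where the value was 0.17 (adjusted p = 0.158), without WT replicate 2 (0.28) and without replicate 1 of 1-2 KO (0.23). GMNN, the gene of geminin, the inhibitor of CDT1, rose by 0.23 ± 0.04 in 1-1 KO and fell by 0.26 ± 0.04 in 1-2 KO, with means of 83.7 ± 3.51, 98.1 ± 2.08 and 70.01 ± 1.51 CPM (SD, n = 3) in WT, in 1-1 KO and in 1-2 KO. CDC6, the ATPase that completes the loading complex, rose by 0.18 ± 0.04 in 1-1 KO (adjusted p = 0.00207) and differed from WT by 0.0038 ± 0.04 in 1-2 KO.

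The 6 subunits of the MCM helicase act as 1 ring with 1 copy of each, and their transcripts did not move together. In 1-1 KO, MCM2, MCM3, MCM5 and MCM6 were upregulated and MCM4 and MCM7 downregulated. In 1-2 KO, MCM2 was upregulated, MCM3 and MCM4 were downregulated, and the other 3 did not pass. MCM2 was measured at 218, 210.3 and 233 CPM in WT, 361, 362 and 352 CPM in 1-1 KO, and 281, 241 and 244 CPM in 1-2 KO. The lines did not overlap, and WT was the lowest. MCM2 rose by 0.70 ± 0.05 (adjusted p = 6.22e-08) in 1-1 KO and by 0.21 ± 0.05 (adjusted p = 0.00479) in 1-2 KO on the log2 scale, and without replicate 1 of 1-2 KO, which had its highest level there, the latter was 0.14.

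MCM7 went the other way, with 916, 865 and 906 CPM in WT, 696, 703 and 706 CPM in 1-1 KO, and 832, 851 and 873 CPM in 1-2 KO. The 1-1 KO libraries lay below all others, and 1-2 KO overlapped with WT. Its log2 fold change was -0.35 ± 0.03 (adjusted p = 7.17e-07) in 1-1 KO and -0.07 ± 0.03 (adjusted p = 0.0938) in 1-2 KO, and the level in 1-2 KO exceeded that in 1-1 KO by 0.28 ± 0.03 (adjusted p = 6.41e-06). MCM3 was upregulated by 0.20 ± 0.04 in 1-1 KO (adjusted p = 0.000531) and fell by 0.26 ± 0.04 in 1-2 KO (adjusted p = 7.85e-05). MCM4 fell by 0.24 ± 0.04 in 1-1 KO and by 0.14 ± 0.04 in 1-2 KO, and the latter call was lost with scaling by library size alone (-0.08, adjusted p = 0.0725). MCM5 and MCM6 rose by 0.45 ± 0.04 and 0.22 ± 0.04 in 1-1 KO and stood at 0.0082 ± 0.04 and -0.09 ± 0.04 in 1-2 KO, below the threshold.

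As a share of the summed level of the 6 genes per length, MCM2 took 9.18 ± 0.354% in WT, 14.2 ± 0.231% in 1-1 KO and 11.4 ± 1.20% in 1-2 KO (SD, n = 3). The share of MCM7 was 35.5 ± 0.626% in WT, 26.4 ± 0.184% in 1-1 KO and 36.1 ± 0.128% in 1-2 KO. MCM2 thus held more of the total in 1-1 KO than in any library of the other lines, and MCM7 less. MCM3 took 26.9 ± 0.570%, 29.4 ± 0.124% and 23.9 ± 0.931%, and it was the only one of the 6 whose share lay above WT in 1-1 KO and below WT in 1-2 KO without overlap of libraries.

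**Figure D2:**
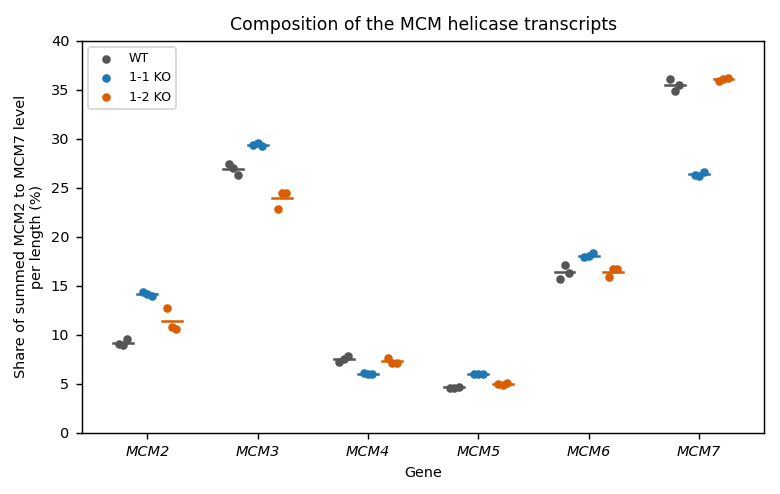
For each gene, points give the share (%) of the summed MCM2 to MCM7 level per length in each library of the 3 lines, and lines the means. The MCM7 points of 1-1 KO lie between 26.2% and 26.6%, below all WT and 1-2 KO points, and the MCM2 points of 1-1 KO lie above all others.

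Of the 5 genes that turn the loaded ring into a working helicase, 2 passed upward and 3 downward in 1-1 KO, and 2 upward and 1 downward in 1-2 KO. GINS3, a GINS subunit, had 16.4, 16.2 and 14.7 CPM in WT, 21.9, 20.9 and 21.4 CPM in 1-1 KO, and 22.1, 21.5 and 23.0 CPM in 1-2 KO. Both knockouts lay above WT and overlapped with each other. It rose by 0.44 ± 0.06 (adjusted p = 1.46e-05) in 1-1 KO and 0.49 ± 0.06 (adjusted p = 6.38e-06) in 1-2 KO, and the difference between the knockouts was 0.05 ± 0.06 (adjusted p = 0.43). GINS1 fell by 0.11 ± 0.04 (adjusted p = 0.0191), a call lost with scaling by library size alone (-0.06, adjusted p = 0.188), with at least 10 counts in every library (-0.09), and without WT replicate 3 (-0.08), 1-1 KO replicate 2 (-0.10) or 1-1 KO replicate 3 (-0.11). In the same line, GINS2 rose by 0.21 ± 0.04, and both genes were within 0.04 of WT in 1-2 KO on the log2 scale. The share of GINS3 in the summed level of GINS1 to GINS3 per length was 9.88 ± 0.766%, 12.0 ± 0.414% and 13.5 ± 0.446% in WT, in 1-1 KO and in 1-2 KO.

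MCM10, which helps to activate the loaded helicase, had 110, 107 and 105 CPM in WT, 72.6, 74.3 and 78.0 CPM in 1-1 KO, and 83.9, 88.9 and 88.4 CPM in 1-2 KO. All knockout libraries lay below WT, and those of 1-1 KO were the lowest. It fell by 0.52 ± 0.04 (adjusted p = 4.02e-08) in 1-1 KO and by 0.30 ± 0.04 (adjusted p = 1.24e-05) in 1-2 KO. CDC45, the cofactor that rides with the ring, had 67.7, 64.8 and 62.9 CPM in WT, 53.0, 54.1 and 55.4 CPM in 1-1 KO, and 71.1, 69.2 and 69.1 CPM in 1-2 KO. The lines did not overlap, with 1-1 KO lowest and 1-2 KO highest. Its log2 fold change was -0.27 ± 0.04 (adjusted p = 3.27e-05) in 1-1 KO and 0.10 ± 0.04 (adjusted p = 0.0423) in 1-2 KO, and the latter lost significance in 8 of the 9 fits that left out 1 library, all but that without WT replicate 1. Its lowest value was 0.05, without WT replicate 3.

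**Figure D3:**
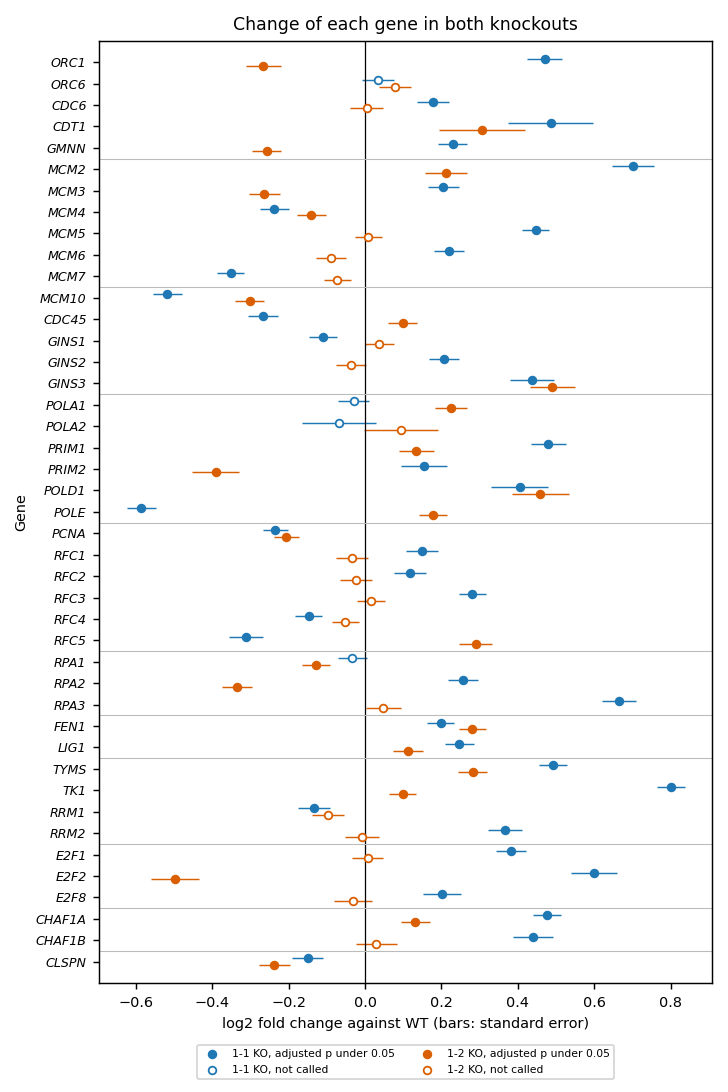
Points give the log2 fold change against WT of each gene in 1-1 KO and in 1-2 KO with its standard error, and filled points passed an adjusted p of 0.05. The highest point is TK1 in 1-1 KO (0.80) and the lowest POLE in 1-1 KO (-0.59), and POLE, RFC5, RPA2 and E2F2 are among the genes with filled points on both sides of 0.

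The polymerase and primase genes were the group in which POLE and POLD1, the catalytic subunits of the leading- and lagging-strand polymerases, parted in 1-1 KO. POLE had 128, 120 and 120 CPM in WT, 80.0, 81.7 and 83.4 CPM in 1-1 KO, and 135, 142 and 139 CPM in 1-2 KO. The lines did not overlap, with 1-1 KO at the bottom and 1-2 KO on top. POLE fell by 0.59 ± 0.04 (adjusted p = 8.19e-09) in 1-1 KO and rose by 0.18 ± 0.04 (adjusted p = 0.000915) in 1-2 KO, and the knockouts differed by 0.76 ± 0.04 (adjusted p = 3.61e-10). The 50 tested genes nearest to POLE on chromosome 12 had a median of -0.43 in 1-1 KO (-0.25 for the nearest 20) and 0.19 in 1-2 KO, and their part in the change of POLE was not tested. POLD1 had 49.4, 49.5 and 58.7 CPM in WT, 70.3, 69.8 and 68.2 CPM in 1-1 KO, and 81.1, 68.7 and 66.3 CPM in 1-2 KO. Both knockouts lay above WT and overlapped with each other. It rose by 0.41 ± 0.07 (adjusted p = 0.000277) in 1-1 KO and by 0.46 ± 0.07 (adjusted p = 0.000121) in 1-2 KO. Without replicate 1 of 1-2 KO, which had its highest level, the latter was 0.37. The ratio of POLE to POLD1 per length was 0.938 ± 0.111 in WT, 0.470 ± 0.0171 in 1-1 KO and 0.776 ± 0.0961 in 1-2 KO, with 1-1 KO below all other libraries.

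Primase has a catalytic subunit, PRIM1, and a large subunit, PRIM2. PRIM2 had 40.1, 40.9 and 38.7 CPM in WT, 41.8, 44.4 and 47.2 CPM in 1-1 KO, and 28.1, 33.2 and 30.1 CPM in 1-2 KO. All 1-2 KO libraries lay below the others. PRIM2 fell by 0.39 ± 0.06 (adjusted p = 9.93e-05) in 1-2 KO, and its rise of 0.15 ± 0.06 in 1-1 KO (adjusted p = 0.0397) lost significance without any 1 of the WT libraries (0.14 to 0.17) and without replicate 2 (0.16) or 3 (0.11) of 1-1 KO. PRIM1 rose by 0.48 ± 0.05 (adjusted p = 4.36e-07) in 1-1 KO and by 0.13 ± 0.05 (adjusted p = 0.0228) in 1-2 KO, where 1 library overlapped with WT and the call was lost without WT replicate 1 (0.11), WT replicate 3 (0.09) or replicate 3 of 1-2 KO (0.11). It shares 139 exonic bases with NACA, whose counts were 1155% of its own. The ratio of PRIM2 to PRIM1 per length fell from 0.486 ± 0.0166 in WT to 0.387 ± 0.0151 in 1-1 KO and 0.338 ± 0.0262 in 1-2 KO, without overlap. POLA1, the catalytic subunit of polymerase alpha, rose by 0.22 ± 0.04 (adjusted p = 0.000345) in 1-2 KO and had -0.03 ± 0.04 in 1-1 KO, and POLA2 passed in neither.

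PCNA, the clamp, fell in both knockouts, from 328 ± 7.21 CPM in WT to 279 ± 4.85 CPM in 1-1 KO (-0.23 ± 0.03, adjusted p = 2.19e-05) and 284 ± 3.56 CPM in 1-2 KO (-0.21 ± 0.03, adjusted p = 9.88e-05). The knockouts differed by 0.03 ± 0.03 (adjusted p = 0.455). Of the 5 subunits of the clamp loader, RFC1, RFC2 and RFC3 rose in 1-1 KO, by 0.15, 0.12 and 0.28 on the log2 scale, and RFC4 fell by 0.15. The call of RFC2 was lost without WT replicate 1 (0.07), 1-1 KO replicate 1 (0.12) or 1-1 KO replicate 2 (0.11). None of these 4 passed in 1-2 KO, where they were between -0.05 and 0.02. RFC5 had 57.8, 59.6 and 57.4 CPM in WT, 47.5, 45.2 and 48.2 CPM in 1-1 KO, and 67.2, 74.0 and 72.4 CPM in 1-2 KO. The lines did not overlap, in the same order as for POLE. RFC5 fell by 0.31 ± 0.04 (adjusted p = 3.02e-05) in 1-1 KO and rose by 0.29 ± 0.04 (adjusted p = 6.67e-05) in 1-2 KO, with a difference of 0.60 ± 0.04 (adjusted p = 2.76e-08) between the knockouts. It took 14.2 ± 0.272%, 10.9 ± 0.367% and 17.0 ± 0.373% of the summed level of the 5 subunits per length. RFC5 also lies on chromosome 12, and its 50 nearest genes had a median of -0.36 in 1-1 KO and 0.09 in 1-2 KO.

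RPA, which coats single-stranded DNA, has 3 subunits, and each went its own way. RPA3, the smallest, had 55.0, 60.3 and 53.3 CPM in WT, 91.4, 86.8 and 89.4 CPM in 1-1 KO, and 57.4, 58.7 and 58.4 CPM in 1-2 KO. Only 1-1 KO was separate from WT, above it, and RPA3 rose there by 0.67 ± 0.04 (adjusted p = 1.38e-08), with 0.05 ± 0.05 in 1-2 KO. Its 50 nearest genes had a median of 0.59 in 1-1 KO, close to its own value. RPA2 had 78.2, 82.9 and 75.1 CPM in WT, 93.1, 94.9 and 94.3 CPM in 1-1 KO, and 63.0, 61.4 and 62.9 CPM in 1-2 KO. The lines did not overlap, and RPA2 rose by 0.26 ± 0.04 (adjusted p = 4.74e-05) in 1-1 KO and fell by 0.34 ± 0.04 (adjusted p = 5.48e-06) in 1-2 KO. RPA1, the largest subunit, passed only in 1-2 KO, with -0.13 ± 0.04 (adjusted p = 0.0102) beside -0.03 ± 0.04 in 1-1 KO, and the direct difference was -0.10 ± 0.04 (adjusted p = 0.0388). With scaling by library size alone, RPA1 was at -0.07 in 1-2 KO (adjusted p = 0.0735) and its call was lost. The direct call was lost without any 1 of the 1-1 KO libraries (-0.10 to -0.09) and without replicate 1 (-0.05) or 3 (-0.10) of 1-2 KO. RPA3 supplied 17.8 ± 0.544%, 24.1 ± 0.628% and 20.8 ± 0.188% of the summed RPA level per length in WT, in 1-1 KO and in 1-2 KO.

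Both genes of Okazaki fragment joining were upregulated in both knockouts. FEN1, the flap nuclease, rose from 324 ± 3.88 CPM in WT to 372 ± 12.2 CPM in 1-1 KO (0.20 ± 0.04, adjusted p = 0.000224) and 394 ± 9.87 CPM in 1-2 KO (0.28 ± 0.04, adjusted p = 1.17e-05). LIG1, the ligase that seals the nick, rose by 0.25 ± 0.04 in 1-1 KO and by 0.11 ± 0.04 in 1-2 KO (adjusted p = 0.0263). The latter was lost without WT replicate 1 (0.10), WT replicate 2 (0.09), or replicate 1 (0.09) or 3 (0.11) of 1-2 KO.

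The genes of deoxynucleotide supply held the largest rise of the list. TK1, thymidine kinase of the salvage pathway, had 101, 101 and 101 CPM in WT, 173, 180.0 and 174 CPM in 1-1 KO, and 105, 106.5 and 113 CPM in 1-2 KO. The 3 lines did not overlap, with 1-1 KO far above the others. TK1 rose by 0.80 ± 0.04 (74.2%, adjusted p = 2.06e-10) in 1-1 KO and by 0.10 ± 0.04 (7.07%, adjusted p = 0.0319) in 1-2 KO, where the call was lost without any 1 of the WT libraries (0.08 to 0.10) or without replicate 3 of 1-2 KO (0.07). TYMS, thymidylate synthase of the synthesis pathway, rose by 0.49 ± 0.04 in 1-1 KO (adjusted p = 4.39e-08) and by 0.28 ± 0.04 in 1-2 KO (adjusted p = 1.74e-05). It shares 967 exonic bases with ENOSF1 on the opposite strand, whose counts were 41.1% of its own, and reads of the pair cannot be told apart if the strand was not used in counting. RRM2, the small subunit of ribonucleotide reductase, rose by 0.37 ± 0.04 in 1-1 KO, while RRM1, the large subunit, fell by 0.13 ± 0.04 (adjusted p = 0.0118), a call lost with scaling by library size alone (-0.08, adjusted p = 0.0678) and without 1-1 KO replicate 1 (-0.11). Their ratio per length, RRM2 over RRM1, was 0.583 ± 0.0364 in WT, 0.824 ± 0.0357 in 1-1 KO and 0.620 ± 0.0132 in 1-2 KO, and neither passed in 1-2 KO.

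All 3 E2F genes of the list were upregulated in 1-1 KO. The E2F genes outside the list did not move together there. E2F5 rose by 0.89 on the log2 scale, E2F4 fell by 0.26, and E2F3, E2F6 and E2F7 did not pass. E2F2, an activating E2F, had 18.2, 20.2 and 19.97 CPM in WT, 28.9, 31.4 and 28.3 CPM in 1-1 KO, and 14.1, 13.4 and 13.9 CPM in 1-2 KO. The lines did not overlap, and 1-2 KO was the lowest. E2F2 rose by 0.60 ± 0.06 (adjusted p = 8.05e-07) in 1-1 KO and fell by 0.50 ± 0.06 (adjusted p = 1.14e-05) in 1-2 KO, and the difference between the knockouts was -1.10 ± 0.06 (adjusted p = 1.42e-09). Its 50 nearest genes had medians of -0.18 in 1-1 KO, opposite in sign to its own, and -0.27 in 1-2 KO. E2F1, the best-studied activator, rose by 0.38 ± 0.04 in 1-1 KO and had 0.0067 ± 0.04 in 1-2 KO. E2F8, a repressor of the family, rose by 0.20 ± 0.05 in 1-1 KO and had -0.03 ± 0.05 in 1-2 KO.

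Both larger subunits of the chromatin assembly factor CAF-1, CHAF1A and CHAF1B, rose by 0.48 ± 0.04 and 0.44 ± 0.05 in 1-1 KO. In 1-2 KO, CHAF1A rose by 0.13 ± 0.04 (adjusted p = 0.00823), a call lost with no filter on low counts (0.12, adjusted p = 0.0663), and CHAF1B had 0.03 ± 0.05. Their ratio per length overlapped among all 3 lines, at 2.27 ± 0.111, 2.32 ± 0.0583 and 2.43 ± 0.0842. CLSPN, the adaptor that passes the checkpoint signal from ATR to CHK1 at stalled forks, fell by 0.15 ± 0.04 in 1-1 KO (adjusted p = 0.00464) and by 0.24 ± 0.04 in 1-2 KO (adjusted p = 0.000169).

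Between the knockouts, the differences were largest for E2F2, POLE and ORC1, given above. TK1 was lower in 1-2 KO than in 1-1 KO by -0.70 ± 0.04 (adjusted p = 5.15e-10), RPA3 by -0.62 ± 0.04 (adjusted p = 2.16e-08) and RPA2 by -0.59 ± 0.04 (adjusted p = 8.23e-09). CDC45 was higher by 0.37 ± 0.04 (adjusted p = 1.17e-06) and MCM7 by 0.28 ± 0.03. The smaller calls of MCM4 (0.10 ± 0.04) and RFC4 (0.10 ± 0.04) were lost without WT replicate 3 (0.07 for each) and without any 1 of the 1-1 KO libraries (0.09 to 0.10). That of MCM4 was also lost without replicate 1 (0.08) or 3 (0.10) of 1-2 KO, and that of RFC4 without replicate 2 (0.08). By role, all 3 E2F genes of the list, all 3 RPA genes and both CAF-1 genes were lower in 1-2 KO. So were 4 of 6 MCM genes, 3 of 5 licensing genes and 3 of 4 genes of deoxynucleotide supply. Of the 5 genes of helicase activation, 3 were higher and 1 lower. Of the 6 polymerase and primase genes, 2 were higher and 2 lower, and of the 6 clamp and clamp loader genes, 2 and 3. Outside the list, E2F4, E2F6 and E2F7 were higher in 1-2 KO than in 1-1 KO, and E2F3 and E2F5 were lower. Of all tested genes, 33.1% were higher and 32.2% lower in this comparison, 65.3% in either direction. The 60% of licensing genes and the 66.7% of polymerase and primase genes that passed were near the latter share.

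Genes of mitosis gave a second cell cycle measure from the same libraries. Of 36 listed, 35 were tested, of which 4 rose and 28 fell in 1-1 KO (91.4% in either direction). This stands beside 63.4% of all tested genes, of which 30.9% were downregulated. Their median change was -0.39 on the log2 scale, beside 0.01 over all tested genes. In 1-2 KO none was upregulated and 26 were downregulated (74.3%), beside 54.4% of all tested genes in either direction and 26.2% downregulated. The median was -0.31, beside 0.02. The 4 that rose in 1-1 KO were CENPE (0.53), BIRC5 (0.38), MAD2L1 (0.25) and FOXM1 (0.16). CCNB1, cyclin B1, went from 354 ± 11.4 CPM in WT to 206 ± 4.27 CPM in 1-1 KO and 225 ± 6.60 CPM in 1-2 KO. CENPF, a kinetochore protein, fell by 0.68 and 0.28 on the log2 scale in 1-1 KO and in 1-2 KO, CDCA8, a subunit of the chromosomal passenger complex, by 0.43 and 0.65, and KIF2C, a microtubule depolymerase, by 0.24 and 0.80.

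The summed counts of the 43 replication genes divided by those of the mitotic genes were 0.836, 0.828 and 0.860 in WT, 1.12, 1.14 and 1.11 in 1-1 KO, and 1.04, 1.03 and 1.03 in 1-2 KO. The ratio was thus higher in both knockouts than in WT without overlap, and highest in 1-1 KO. The parts of the ratio differed between the knockouts. The summed replication level was 6099 ± 37.6 CPM in WT, 6514 ± 59.2 CPM in 1-1 KO and 5976 ± 113 CPM in 1-2 KO, and the summed mitotic level was 7253 ± 125, 5803 ± 85.1 and 5772 ± 144 CPM. On this TMM scale, the replication sum of every 1-2 KO library lay below WT. As a share of all counts, without TMM, the 43 genes held 0.595 ± 0.003% in WT, 0.658 ± 0.0046% in 1-1 KO and 0.606 ± 0.00417% in 1-2 KO, so that 1-2 KO lay above WT in every library and the direction of its sum depends on the scaling.

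**Figure D4:**
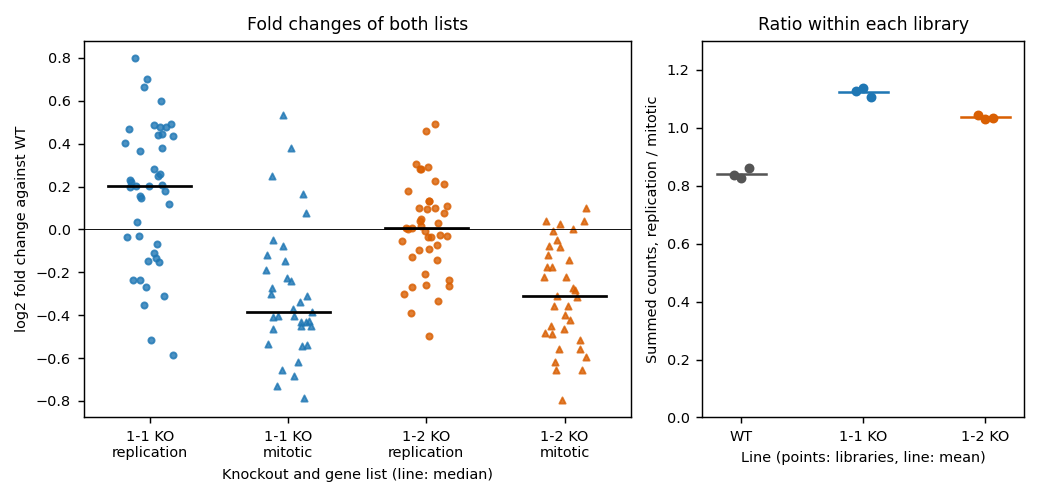
On the left, each point is a gene, with its log2 fold change against WT for the replication and the mitotic genes in each knockout, and lines are medians. On the right, each point is a library and gives the summed counts of replication genes over those of mitotic genes, which are 0.828 to 0.860 in WT and 1.03 or more in every knockout library.

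Over 5 further lists with 86 replication genes, the calls in 1-1 KO were 27 upward and 28 downward with a median of -0.03, and those in 1-2 KO 29 and 27 with a median of 0.01. In 1-1 KO 63.95% of them passed, a share near the 63.4% of all tested genes, and in 1-2 KO 65.1% did, beside 54.4%. Whether they differ from the 43 genes was not tested. Among 13 other genes of licensing and firing, 6 rose and 4 fell in each knockout (76.9%). ORC4 and ORC5, further subunits of the origin complex, had log2 fold changes of 0.60 (adjusted p = 1.36e-08) and -0.52 (adjusted p = 1.04e-07) in 1-1 KO. TICRR, which recruits CDC45, rose by 0.30 in 1-2 KO (adjusted p = 5.72e-06) and fell by 0.23 in 1-1 KO, and ORC3 fell by 0.35 in 1-2 KO. Among 24 other polymerase and fork genes, 9 rose and 6 fell in each knockout (62.5%), in 1-1 KO near the share of all tested genes. TIPIN, a member of the fork protection complex, fell by 0.85 in 1-1 KO (adjusted p = 4.93e-09) and 0.43 in 1-2 KO, TOP1, a topoisomerase, fell by 0.47 in 1-1 KO, and ASF1A, a histone chaperone, fell by 0.45 in 1-2 KO.

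Of 20 further genes of nucleotide supply, 1-1 KO had 5 higher and 8 lower, and 1-2 KO had 3 higher and 8 lower. These were 65% and 55% of the list, near the 63.4% and 54.4% of all tested genes. SAMHD1, which degrades deoxynucleotides, fell from 32.5 ± 0.773 CPM in WT to 18.2 ± 1.12 CPM in 1-1 KO (adjusted p = 1.76e-08), with 35.3 ± 1.73 CPM in 1-2 KO. CTPS1, CTP synthase, fell by 0.51 and 0.24 in 1-1 KO and in 1-2 KO, CMPK1, a pyrimidine kinase, fell by 0.22 and 0.42, and SHMT2, of mitochondrial one-carbon metabolism, fell by 0.22 in 1-1 KO and rose by 0.32 in 1-2 KO. Of 8 checkpoint genes, 1-1 KO had 1 higher and 4 lower (62.5%), and 1-2 KO had 1 higher and 3 lower (50%), also near these shares. HUS1 and RAD17, of the checkpoint clamp and its loader, fell by 0.43 and 0.35 in 1-1 KO. RAD1, a subunit of the same clamp, fell by 0.89 in 1-2 KO (adjusted p = 9.85e-11), and WEE1, the kinase that restrains CDK1, rose by 0.54 there (adjusted p = 9.91e-08).

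Of 21 further genes that control entry into S phase, 1-1 KO had 6 higher and 6 lower (57.1%), and 1-2 KO had 10 higher and 6 lower (76.2%). Of all tested genes, 63.4% and 54.4% passed. SKP2, which directs degradation of the CDK inhibitor p27, went from 189 ± 2.88 CPM in WT to 338 ± 5.40 CPM in 1-1 KO and 138 ± 8.12 CPM in 1-2 KO, a difference of -1.29 on the log2 scale between the knockouts (adjusted p = 4.77e-12). TFDP2, a partner of E2F factors, went the same ways, from 30.7 ± 0.782 CPM to 55.8 ± 0.502 CPM and 24.97 ± 0.185 CPM. CDKN1A, the CDK inhibitor p21, was at 10.3 ± 1.28 CPM in WT, 10.8 ± 0.256 CPM in 1-1 KO (adjusted p = 0.474) and 3.81 ± 0.201 CPM in 1-2 KO, a fall of 1.43 on the log2 scale (adjusted p = 1.76e-08). CCNE1 and E2F5, next by adjusted p in 1-2 KO, rose there by 0.72 and 0.58. In 1-1 KO, CCNE1 fell by 0.26 and E2F5 rose by 0.89.

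Position on the chromosome went with part of the pattern. The 50 tested genes nearest to each of the 43 were summarised by the median of their log2 fold changes, which ran from -0.43 to 0.90 in 1-1 KO and from -0.50 to 0.20 in 1-2 KO. Over the 43 genes, which share the same 9 libraries, Pearson's r between a gene and its neighbours was 0.55 in 1-1 KO and 0.63 in 1-2 KO (Spearman's rho 0.53 and 0.47), given as a description. GMNN lies on chromosome 6 among neighbours at 0.90 in 1-1 KO and -0.50 in 1-2 KO, and its own changes, 0.23 and -0.26, had the same signs. With its 20 nearest genes the neighbours were at 0.27 and -0.23, so that their distance from GMNN depends on the window. In 1-2 KO the median of all 952 tested genes of chromosome 6 was -0.27, and MCM3 and PRIM2, also on chromosome 6, had neighbours at -0.43 and -0.41, beside their own -0.26 and -0.39. On chromosome 19, with a median of 0.33 over 1099 genes in 1-1 KO, lie POLD1, CHAF1A and LIG1, and on chromosome 21, with 0.35 over 169 genes, lies CHAF1B. In the order named, their 50 nearest genes were at 0.16, 0.31, 0.31 and 0.25, beside their own 0.41, 0.48, 0.25 and 0.44.

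Relative to neighbours, 32 of the 43 genes lay above and 11 below in 1-1 KO, with a median difference of 0.18, and 21 lay above and 22 below in 1-2 KO, with a median difference of -0.01. The median in 1-1 KO before subtracting was 0.20, and with 20 or 100 neighbours the difference was 0.17 or 0.11. Among the genes of 1-1 KO whose neighbours had the opposite sign were ORC1, MCM5, PRIM1, RRM2 and E2F2, with neighbours between -0.07 and -0.18. In 1-2 KO, PCNA fell among neighbours at 0.10, and GINS3 rose among neighbours at 0.07, which were at 0.24 with a window of 20.

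**Figure D5:**
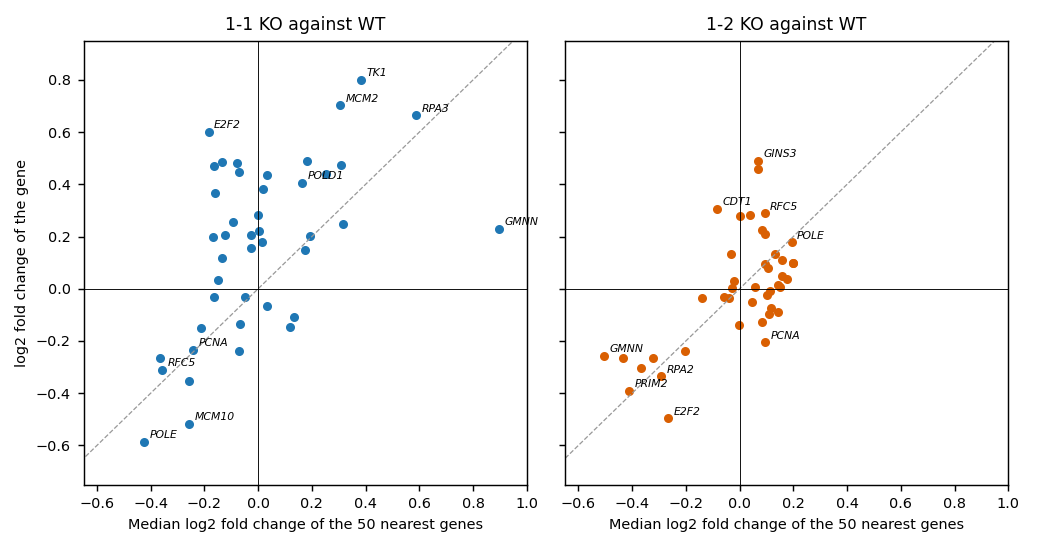
Each point is 1 of the 43 genes, with the median log2 fold change of its 50 nearest tested genes on the x axis, its own log2 fold change against WT on the y axis, and a dashed line where both are equal. In 1-1 KO 32 points lie above the line, with GMNN far to the right at 0.90, and in 1-2 KO 21 do.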

How the data were processed

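Total RNA of Huh-7 cells was made into 9 stranded mRNA libraries, 3 per line. The authors aligned the reads to GRCh38 with annotation version 104 using STAR and ran featureCounts, and the deposited values are raw read counts per gene that were not normalized. Whether counting used the strand, and how reads with several matches were treated, is not given in the sources used here. Exons of 18 of the 43 genes overlap genes on the opposite strand and those of 6 overlap genes on the same strand. Symbols, positions and exon lengths were taken from GENCODE 44, in which 60463 of the 60664 identifiers were found, and 25452 genes had 0 counts in every library.

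Counts were tested in R 4.3.3 with edgeR 4.0.16 (filterByExpr with minimum count 10 and minimum total 15, TMM scaling, quasi-likelihood test), with all 9 libraries in 1 fit, a term per line and 6 residual degrees of freedom. P-values were adjusted by Benjamini-Hochberg over the 17207 tested genes, with a threshold of 0.05. CPM are counts scaled by library size and TMM factor, and the biological coefficient of variation was 5.55%. Fold changes are given as log2 values with standard errors (SE), the knockout or the first line named minus the other. TPM were computed from counts and merged exon lengths. Alternatives were DESeq2 1.42.0, other scalings, filters and thresholds, only the lines compared, a replicate block, and leaving out each library. The length of the MANE Select transcript was an alternative chosen after seeing the data. The testing step was tested on simulated data. Summaries and figures used Python 3.11.15, pandas 2.3.3, numpy 2.4.6 and matplotlib 3.10.9.

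The 43 genes and the other lists were chosen with earlier results of these data known. Every one of the 43 is named, and values per library are given for the 4 largest rises and the 4 largest falls among called genes of each comparison. Of each other list, the 2 genes with the smallest adjusted p per knockout are named. CENPE, BIRC5, MAD2L1, FOXM1, CCNE1 and E2F3 to E2F7 were named in addition, after seeing the data. A planned search of the proteins for PCNA-binding motifs was not run, as no protein table was used here.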

Additional observations from a re-analysis of the deposited data

Results flagged for a closer look

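Several replication genes passed the test in opposite directions in the 2 knockouts, and the genes named here were picked by that rule. The direct comparison of 1-2 KO with 1-1 KO by edgeR's quasi-likelihood test passed an adjusted p of 0.05 for each. This adds no separate support, as the direct value is the difference of the 2 opposite changes from the same fit. Because both knockouts were compared with the same WT libraries, the direct difference is the value to read. On the log2 scale, 1-2 KO minus 1-1 KO, it was -0.74 for ORC1, -0.49 for GMNN, -0.47 for MCM3, -0.55 for PRIM2, -0.59 for RPA2 and -1.10 for E2F2. It was positive for CDC45 at 0.37, for POLE at 0.76 and for RFC5 at 0.60. In the same direct comparison, the medians of the 50 nearest genes were -0.18 for ORC1, -1.08 for GMNN, -0.41 for MCM3, -0.34 for PRIM2, -0.22 for RPA2, 0.0049 for E2F2, 0.54 for CDC45, 0.55 for POLE and 0.45 for RFC5. With the 20 nearest genes, the values for GMNN and PRIM2 were -0.66 and -0.17, and with the 100 nearest that for E2F2 was -0.14. The part of the neighbouring genes in these differences was not tested. The call of CDC45 in 1-2 KO against WT rests on an adjusted p of 0.0423 and that of PRIM2 in 1-1 KO on 0.0397, and both were lost in several fits without 1 library.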

How the results depend on the processing

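In no alternative did a called gene change its sign. For 1-1 KO and between the knockouts, the counts stayed within 1.5 times under every alternative, and the median of the 43 genes in 1-1 KO was 0.26 with scaling by library size alone, where the median of all tested genes was 0.06. For 1-2 KO, the 14 upregulated genes became 9 with no filter on low counts, with only the 2 groups compared, with DESeq2's Wald test and with an adjusted p under 0.01. The 11 downregulated genes became 12, 11, 14 and 10 in the same order, so that fewer rose than fell in each of these settings. In 1-2 KO against WT, DESeq2's Wald test gained calls for MCM6, MCM7 and RRM1 (-0.10, -0.08 and -0.11). The median in 1-2 KO was 0.062 with library size alone, beside 0.075 over all genes. Single calls were lost with library size alone for GINS1 (-0.06) and RRM1 (-0.08) in 1-1 KO and MCM4 (-0.08) and RPA1 (-0.07) in 1-2 KO, and with DESeq2 size factors for PRIM2 (0.14) in 1-1 KO and CDC45 (0.09) in 1-2 KO. With no filter on low counts, calls were lost for RFC2 (0.10) in 1-1 KO, for CDC45, PRIM1, LIG1, TK1 and CHAF1A (0.08 to 0.12) in 1-2 KO, and for MCM4, RFC4 and RPA1 (0.10, 0.10 and -0.09) between the knockouts. With at least 10 counts in every library they were lost for GINS1 (-0.09) in 1-1 KO and for MCM4 and RFC4 (0.08 each) between the knockouts. With only the 2 groups compared they were lost for CDT1, CDC45, PRIM1, LIG1 and TK1 in 1-2 KO and for MCM4 and RFC4 between the knockouts, and with DESeq2's Wald test for PRIM2 and RFC2 in 1-1 KO, for CDT1, CDC45, PRIM1, LIG1 and TK1 in 1-2 KO, and for RFC4 and RPA1 between the knockouts. The cause was not tested. Leaving out 1 library gave 26 to 28 upregulated and 10 to 11 downregulated genes in 1-1 KO (median 0.20 to 0.22), 10 to 13 and 11 to 13 in 1-2 KO (median -0.01 to 0.02), and 7 to 9 and 24 to 27 between the knockouts (median -0.20 to -0.15). In these fits, 1098 values of single genes kept their side of the threshold, 50 lost their call and 13 gained one. The gains were ORC6 and MCM7 without WT replicate 2 (0.12 and -0.10), MCM6 without WT replicate 1 (-0.12), WT replicate 3 (-0.11) or replicate 3 of 1-2 KO (-0.11), and RRM1 without WT replicate 3 or replicate 2 of 1-2 KO (-0.13 each), all in 1-2 KO against WT. Between the knockouts they were CDT1 without WT replicate 3 (-0.20) or 1-2 KO replicate 1 (-0.26), CLSPN without WT replicate 3 or 1-2 KO replicate 2 (-0.11 each), and FEN1 without 1-1 KO replicate 3 or 1-2 KO replicate 1 (0.10 each). The replicate numbers did not pair the libraries (correlations of deviations from -0.187 to 0.047, with 3 of 18 highest for the own number), and a replicate block gave 28 and 11, 12 and 11, and 8 and 25 in the same order, with calls lost for CDC45 and TK1 in 1-2 KO and for MCM4 between the knockouts. With 20, 50 and 100 neighbours, the median difference of the 43 genes from their neighbours was 0.17, 0.18 and 0.11 in 1-1 KO. In 1-2 KO it was -0.03, -0.01 and 0.00035. Values of single genes also depend on the window. Compared to 50 neighbours, a window of 20 moved the value by over 1.5 times, or turned its sign, for 19 of the 43 genes in 1-1 KO and 24 in 1-2 KO, and a window of 100 for 19 and 13. The depth of 32384469 to 41782387 counts limits POLA2 most, with 178 to 297 counts. Values for levels per length depend on the annotated exons, and each genotype is 1 line.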
